A study of Mus musculus with 6 samples.

Results

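The loci described here are the transcript models that begin under 10 Mb on the mouse autosomes, chromosomes 1 to 19. Mouse chromosomes carry the centromere at one end, and the assembled sequence of each begins near 3 Mb, so these models lie on the centromere side of their chromosomes. The rule used position alone and took 375 of the 7959 deposited models, at 371 of 7853 loci (sets of overlapping exons), and 171 of the 375 began under 5 Mb. The RNA came from chromatin of cultured MEL cells, which are mouse erythroleukemia cells of a line labelled as C57BL/6, fixed with formaldehyde. All 6 libraries shared this treatment: 2 were made from input chromatin, 2 after capture with masked TH59-DB, the negative control probe, and 2 after capture with TH59-DB. The labels leave unsaid whether a group's libraries are separate cultures, and p-values below therefore measure only the spread between libraries, which may be technical. In these bulk libraries, RNA from more cells and more RNA per cell cannot be told apart.

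TH59-DB is a pyrrole-imidazole polyamide, a synthetic molecule that reads DNA from the minor groove, and was directed at the TTAGGG repeats of telomeres. Telomeres carry RNA of their own: the repeats and the sequence next to them are transcribed into TERRA, which stays bound to chromatin. Each mouse autosome has a telomere at both ends, and on the centromere side long blocks of satellite repeats lie between the telomere and the assembled sequence. The distances of these loci from a telomere or a centromere were not measured here, since the files hold neither.

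Of the 375 models, 325 lay in the span of a RefSeq gene, 212 genes in all, and 50 lay in none, which is 13.3% against 14.0% of all models. Protein-coding genes held 294 of them and lncRNA genes 15. Single-exon models made up 77.6%, against 75.3% of all models, and the median length was 276 bases. Chromosome 19, whose first 10 Mb are gene-rich, held 81, chromosome 11 held 39, and chromosomes 5 and 16 held 28 each, while chromosome 14 held 2. Just inside the limit of 10 Mb were models in Fth1 (chromosome 19, from 9982680; 59 to 1128 reads per library) and Usp14 (chromosome 18, from 9996624; 0 to 14 reads). Just outside were models in Rab3il1 (chromosome 19, from 10015111; 0 to 11 reads) and Cops5 (chromosome 1, from 10026223; 0 to 14 reads). Whether a model in a span is exonic or intronic is not known here, because the gene table used gives spans without exons.

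Malat1, a long nuclear RNA of chromosome 19, was the annotated gene with the most reads among these loci. Its longest model ran from 5799535 to 5802671 (mm10), ending 1 base short of the annotated start of the gene at 5802672 on the minus strand. The RefSeq promoter window of Malat1, chr19:5802623-5802922 on the minus strand of GRCm38.p6, is shown because that model reaches into it. The sequence is written 5′ to 3′, with the 50 bases from the start site onward in capitals.

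Malat1: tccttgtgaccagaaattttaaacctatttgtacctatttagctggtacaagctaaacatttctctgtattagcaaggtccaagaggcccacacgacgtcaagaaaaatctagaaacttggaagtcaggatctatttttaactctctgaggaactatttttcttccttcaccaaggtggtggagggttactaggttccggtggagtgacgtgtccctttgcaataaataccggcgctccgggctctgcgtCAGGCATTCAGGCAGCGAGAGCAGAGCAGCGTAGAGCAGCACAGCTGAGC

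The telomere repeat unit, TTAGGG or on the other strand CCCTAA, had 0 matches in this window. Of 32851 promoter windows of 300 bases, 10.6% held it at least once. The share was 9.5% of 200 windows for 152 genes with a centromere-side model, and 10.5% of 1577 windows that lie in the same regions. Matches overlapping other motifs were not looked for.

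Library totals ran from 1803723 to 3122558 reads, so that 1 read was 0.320 to 0.554 CPM (reads per 1000000 reads of a library's total). The centromere-side models held 19986 to 58377 reads per library. The libraries were unlike in how they filled the models. In TH59-DB 1 each centromere-side model had 9 reads or more, and 372 reached 10 or more, whereas the other libraries had 62 to 200 models at 0 reads and 117 to 221 with 10 or more. Masked TH59-DB 1 had the 200 models at 0, and 50.8% of its reads lay in a single model elsewhere in the genome. Over these 375 models, which both libraries of a pair share, Spearman correlations were 0.911 for the input pair, 0.722 for the masked pair and 0.590 for the TH59-DB pair. Of 14 erythroid markers 7 had a model, and these summed to 788 and 1069 CPM in the input, 435 and 976 with the masked probe, and 463 and 341 in TH59-DB. Of 9 markers of other blood cells 2 had a model (4.06 to 49.4 CPM summed), and of 7 markers of other tissues 0 had one.

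The centromere-side models together held a similar part of each library, apart from masked TH59-DB 1. They made up 1.96% and 1.76% of the input libraries, 1.01% and 1.81% of the masked libraries, and 1.83% and 1.60% of the TH59-DB libraries. The group means were 1.86% ± 0.136, 1.41% ± 0.561 and 1.72% ± 0.158 (SD, n = 2 each). Masked TH59-DB 1 was the lowest library and the other 5 overlapped. The exact permutation test over libraries, 2-sided, gave p = 0.667 for each pair of groups, and with 2 against 2 the smallest p it allows is 0.333.

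A locus on chromosome 3 from 5860342 to 5860810, 469 bases in no gene span and 109 kb from the nearest gene, Gm8797, had the most reads of all in the input. It had 37242 and 21532 reads there, 4863 and 9564 with the masked probe, and 5239 and 2264 in TH59-DB. Its part of the centromere-side reads was 63.8% and 42.8% in the input, 24.3% and 16.9% with the masked probe, and 15.9% and 5.45% in TH59-DB. Both input libraries thus stood above all 4 captured libraries. The models of Malat1, which overlap in part and so share reads, went the other way: 5 models held 11.2% and 20.0% of the centromere-side reads in the input, 43.7% and 47.3% with the masked probe, and 42.3% and 39.1% in TH59-DB. A further 9 models, identified below by their difference between TH59-DB and the input, held 3 input reads between them. They held 1.82% and 1.11% of the centromere-side reads with the masked probe, 10.9% in TH59-DB 1 and 37.3% in TH59-DB 2. Without the chromosome 3 locus the remaining 374 models made up 0.708% and 1.01% of the input, 0.767% and 1.50% of masked TH59-DB, and 1.54% and 1.52% of TH59-DB. Without Malat1 and the 9 models as well, the other 360 made up 0.489% and 0.656% of the input. They made up 0.306% and 0.627% of masked TH59-DB, and 0.564% and 0.291% of TH59-DB, so that the groups overlapped.

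**Figure D1:**
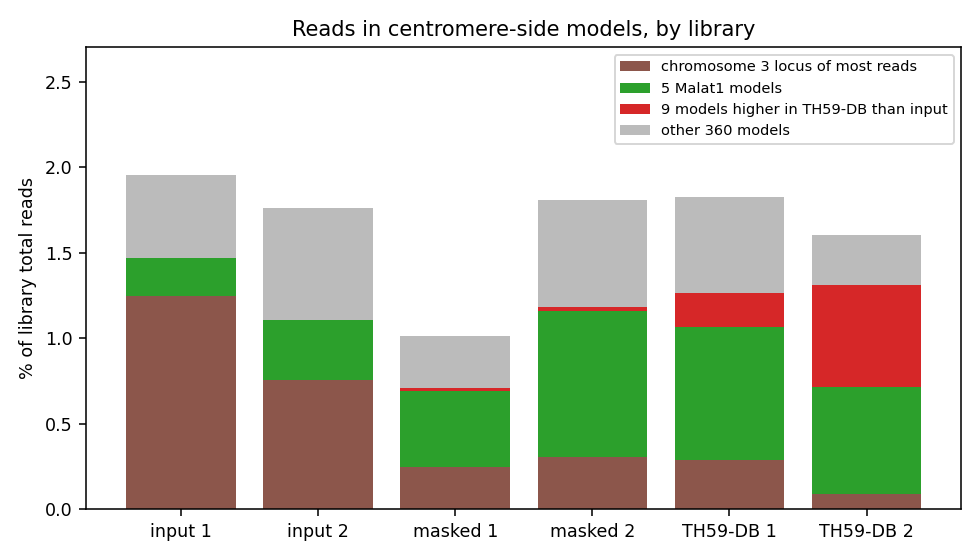
Bars show, for each library, the percentage of the library total held by the 375 centromere-side models, split into the chromosome 3 locus with most reads, 5 Malat1 models, 9 models higher in TH59-DB than in the input, and the other 360 models. The total lies between 1.01% and 1.96%, while the chromosome 3 part shrinks from 1.25% in input 1 to 0.0874% in TH59-DB 2.

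Setting TH59-DB against its masked form asks what came down with the telomere-directed probe and less or not with the control. The fit covered all 5385 models that passed the read filter. On the centromere side 251 passed it and 124 were not tested. Models in the spans of Esr1, which encodes the estrogen receptor alpha, and Frmd4a, which encodes a scaffold protein of cell polarity, were higher in TH59-DB. These were 2 of 251 models (0.797%), against 1.41% of all models tested, and 0 were lower, against 0.0% of all (edgeR's quasi-likelihood test, Benjamini-Hochberg adjusted p under 0.05). A share near or under that of all models is no result about the centromere side. At an unadjusted p under 0.05, 16 were higher and 2 lower, or 6.37% and 0.797%, against 8.26% and 1.69% of all models. DESeq2 called 11 of 241 higher, or 4.56%, against 4.73% of all, and 0 lower, against 0.0%. The median log2 fold change was 0.24, against 0.30 over all models tested. Where the other groups were near 0, a model needed reads in both TH59-DB libraries to be tested at all, and such models had to be higher.

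The Esr1 model is a single exon of 652 bases on chromosome 10 (4614286 to 4614937), 2.30 kb into a gene span of 394 kb. It had 888 and 3308 reads in TH59-DB, 15 and 13 with the masked probe, and 1 and 0 in the input. These were 492 and 1278 CPM, 7.61 and 4.16 CPM, and 0.335 and 0 CPM, so each TH59-DB library was far above each other library. Mean CPM was 885 ± 555 against 5.89 ± 2.44 with the masked probe (SD, n = 2 each), a ratio of 150, and the pooled ratio was 174 (95% exact interval 120 to 262, counting error only). The log2 fold change was 7.63 (SE 1.30, edgeR adjusted p = 0.0252), higher in both TH59-DB libraries, and the call held in all 13 other fits made (adjusted p at most 0.0246). A second model in Esr1 (4613653 to 4613937) had 16 and 2 reads in TH59-DB and 0 in the other 4 libraries.

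The Frmd4a model, a single exon of 477 bases on chromosome 2 (4515670 to 4516146), lies 498 kb into a span of 596 kb. It had 156 and 578 reads in TH59-DB, 12 and 40 with the masked probe, and 0 and 0 in the input. The CPM of 86.5 and 223 in TH59-DB lay above the 6.09 and 12.8 of masked TH59-DB, with no overlap. The ratio of means was 16.4 (pooled ratio 16.4, 95% exact interval 12.3 to 22.1) and the log2 fold change 4.56 (SE 0.93, edgeR adjusted p = 0.0499). The call ended without masked TH59-DB 1 or without TH59-DB 2 (adjusted p up to 0.244) and held in 11 of 13 other fits. An overlapping model with a short upstream exon (9 and 69 bases, from 4505753) can share its reads and had a log2 fold change of 4.51 (edgeR adjusted p = 0.0562).

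The count of 2 higher models depended on single libraries. Leaving out masked TH59-DB 2 gave 57 higher and 12 lower, and leaving out TH59-DB 2 gave 1 higher. The count was 10 without masked TH59-DB 1, 9 without TH59-DB 1, and 5 without either input library. Without masked TH59-DB 2, which leaves masked TH59-DB 1 with its 200 models at 0, the median of all tested models was 5.10 and that of the centromere-side models 4.71. The same libraries set the direction of most models when each number was taken alone. Models with at least 10 reads in either library were taken. Of 372 such centromere-side models, 84.4% had a higher CPM in TH59-DB than with the masked probe for libraries numbered 1. The share was 14.7% of 232 for libraries numbered 2. Over all models the shares were 84.7% and 17.7%. Every deposited model had at least 5 reads in TH59-DB 1, and the part of this in the values for libraries numbered 1 was not tested.

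Among values below 0, where none passed, the smallest p came from models in Glyr1, a nuclear protein gene (log2 fold change -2.21, edgeR adjusted p = 0.489), Gm41664, a lncRNA gene within the span of the kinesin gene Kif5b (-1.45, 0.496), and Asxl2, a Polycomb-associated protein gene (-2.28, 0.640). The Glyr1 model had 10 and 4 reads in TH59-DB and 42 and 29 with the masked probe. The Asxl2 model had 13 and 14 reads in TH59-DB and 111 and 12 with the masked probe, so that 1 masked library stood apart. Malat1 showed no difference beyond the spread between libraries. Its longest model had 3877 and 3151 CPM in TH59-DB and 2231 and 4177 with the masked probe, which overlap (log2 fold change 0.43, edgeR adjusted p = 0.972), and the sign turned in 1 of 13 other fits.

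Rprl3, a gene of the RNase P RNA family on chromosome 8 (3803135 to 3803364), was named after its values were seen. It had 1268 and 1234 reads in TH59-DB, 164 and 223 with the masked probe, and 187 and 351 in the input. Both TH59-DB libraries stood above the other 4. It did not pass against masked TH59-DB (log2 fold change 3.07, SE 0.77, edgeR adjusted p = 0.0837) or against the input (2.74, SE 0.76, adjusted p = 0.0917). The RNase P RNA gene has near-identical copies, so its reads could have been split or shared in the authors' counting and these values are uncertain.

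The comparison of TH59-DB with the input asks which RNAs were over-represented in the captured chromatin. It shares its TH59-DB libraries with the comparison above. Of the 251 models tested 9, at 8 loci, were higher after TH59-DB capture, or 3.59%, against 3.58% of all models tested, and 0 were lower, against 0.0371% (edgeR adjusted p under 0.05). The share on the centromere side was therefore that of the whole table. At an unadjusted p under 0.05, 19 were higher and 10 lower, or 7.57% and 3.98%, against 8.86% and 5.14% of all models. DESeq2 called 16 of 241 higher and 3 lower, or 6.64% and 1.24%, against 6.31% and 0.714% of all. The median log2 fold change was 0.12, against 0.03 over all models. Leaving out either masked library raised the count of 9, to 25 (library 1) or 27 (library 2), and leaving out any other library gave 7 to 9. With either masked library removed, 6 (library 1) or 4 (library 2) models were lower in place of 0, and removing TH59-DB 2 made 1 lower.

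The 9 models were nearly silent in the input, with at most 1 read in either library, and were present in both captures. Of the 8 loci, 3 were in gene spans. The Esr1 model had a pooled ratio of 5579 over the input (95% exact interval 1001 to 220393, log2 fold change 12.26, SE 1.66, edgeR adjusted p = 0.0029). Both Frmd4a models had 0 input reads. Taking 3 reads per library as the floor of a count of 0, they were at least 151-fold and at least 143-fold higher (edgeR adjusted p = 0.0029 and 0.0032).

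The third span was that of Ppp1r9a, which encodes neurabin, an actin-binding scaffold of a protein phosphatase. Its model on chromosome 6 (4862279 to 4924535) has exons of 11, 7 and 679 bases, the last of which holds nearly all of its length. It had 1457 and 6288 reads in TH59-DB, 140 and 67 with the masked probe and 0 and 0 in the input. In TH59-DB these were 808 and 2429 CPM, the highest of the 9 models. It was at least 1574-fold above the input (edgeR adjusted p = 0.0038). Against masked TH59-DB the ratio of means was 35.0 (pooled ratio 43.4, 95% exact interval 37.8 to 50.0), with no overlap between libraries, and the model did not pass (log2 fold change 5.46, SE 1.33, edgeR adjusted p = 0.0870). It passed there with DESeq2, with DESeq2 size factors, without TMM, without the read filter and with the library number as a block. It did not pass with sums of model counts as library sizes or with the 2 groups alone.

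The other 5 loci were in no gene span. The chromosome 17 locus (7609617 to 7616357, exons of 7 and 78 bases) had 495 and 2445 reads in TH59-DB, 89 and 231 with the masked probe and 0 and 1 in the input. Its pooled ratio over the input was 3909 (95% exact interval 701 to 154437, edgeR adjusted p = 0.0029), and its ratio of means over masked TH59-DB was 10.2 (adjusted p = 0.105). The chromosome 3 locus (6116045 to 6121286, exons of 187 and 7 bases) begins 0.13 kb from the gene Gm46796. It had 260 and 1631 reads in TH59-DB, 31 and 87 with the masked probe and 0 and 1 in the input. Its pooled ratio over the input was 2514 (451 to 99352, edgeR adjusted p = 0.0032), and over masked TH59-DB the ratio of means was 17.8 (adjusted p = 0.0652). For both loci every TH59-DB library exceeded every masked library, and every masked library exceeded both input libraries. Against masked TH59-DB both passed in the fits named for Ppp1r9a, and the chromosome 3 locus also with sums of model counts.

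Chromosome 16 held 2 such loci, close to the start of its assembled sequence. The first (3127416 to 3127894, 1 exon of 479 bases) had 94 and 398 reads in TH59-DB, 21 and 43 with the masked probe and 0 in the input. It lies between a vomeronasal receptor pseudogene, Vmn1r-ps137, and Gm4106, at 37.9 kb and 33.3 kb. It was at least 100.1-fold above the input (edgeR adjusted p = 0.0033), and 8.43 times masked TH59-DB in mean CPM (adjusted p = 0.0984). Against masked TH59-DB it passed in the fits named for the chromosome 3 locus. The second (3338969 to 3339128, exons of 15 and 116 bases) had 47 and 251 reads in TH59-DB, 21 and 75 with the masked probe and 0 in the input. In CPM, TH59-DB 1 (26.1) was close to masked TH59-DB 2 (24.0), and TH59-DB 2 was at 96.9. It was at least 59.8-fold above the input (edgeR adjusted p = 0.0046), a call that ended without TH59-DB 2 (adjusted p = 0.0554).

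The last locus, on chromosome 10 (6384107 to 6384274, 1 exon of 168 bases), differed least between the probes. It had 54 and 35 reads in TH59-DB, 22 and 30 with the masked probe and 0 in the input. The CPM were 29.9 and 13.5 in TH59-DB against 11.2 and 9.61 with the masked probe (ratio of means 2.09, edgeR adjusted p = 0.874). It was at least 21.1-fold above the input (edgeR adjusted p = 0.0096), and this call ended when either input library or either TH59-DB library was left out (adjusted p up to 0.113).

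**Figure D2:**
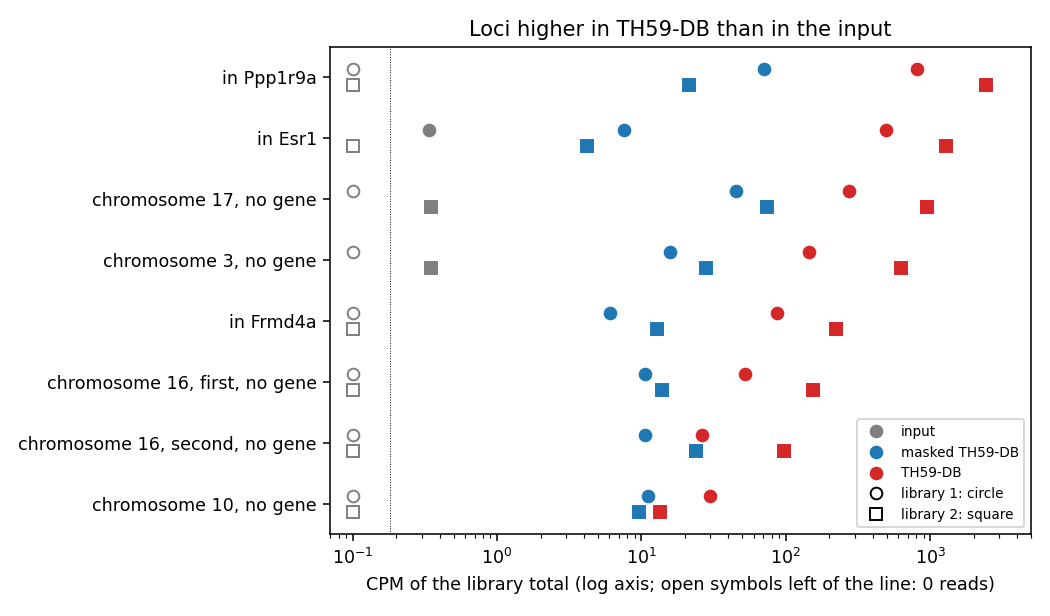
Points show the CPM of each library on a log axis for the 8 loci higher in TH59-DB than in the input, with circles for library 1, squares for library 2, and open symbols for 0 reads. In each locus the masked TH59-DB libraries, at 4.16 to 74.0, lie between the input and the TH59-DB libraries.

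Being in no gene span went with being called, as it did over the whole table. Of 25 tested centromere-side models in no span 5 were higher in TH59-DB than in the input, or 20.0%, against 20.2% of 511 such models over all chromosomes. Of 226 in a span 4 were, or 1.77%, against 3.58% of all models tested, those in no span included. Setting aside the chromosome 3 locus of most reads, the 49 models in no span made up 0.0272% and 0.0157% of the input, 0.0271% and 0.0411% of masked TH59-DB, and 0.103% and 0.200% of TH59-DB. Both TH59-DB libraries were above the other 4 (exact permutation p = 0.333, the smallest possible). This sum includes the 5 loci called for being higher in TH59-DB than in the input, so it is no separate support. Of its 1862 and 5171 TH59-DB reads, the chromosome 17 locus alone held 495 and 2445. Without the 5 loci, whose reads are given above, TH59-DB 2 no longer stood above the other 4 libraries. Against masked TH59-DB 0 of the 25 passed in either direction by edgeR, where 8.02% of the 511 over all chromosomes were higher and 0.0% lower. DESeq2 called 4 of 23 higher, or 17.4%, against 22.6% of 499. At an unadjusted p under 0.05, 5 of the 25 were higher and 0 lower, or 20.0% and 0%, against 36.4% and 0.587% of the 511. The shares of the centromere-side models were the lower ones here, on few models, and the difference was not tested.

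No model passed as lower in TH59-DB than in the input, and the smallest p belonged to models in Rpl28, Camk1d and Hnrnpul2. Rpl28, a protein of the large ribosomal subunit, had 136 and 299 reads in the input, 29 and 125 with the masked probe, and 22 and 30 in TH59-DB. Both TH59-DB libraries (12.2 and 11.6 CPM) lay below both input libraries (45.6 and 104.7), with a log2 fold change of -2.49 (SE 0.68, edgeR adjusted p = 0.0917). Camk1d, a calcium and calmodulin-dependent kinase gene on chromosome 2, had a model with exons of 7, 334 and 10 bases. This model had 2988 and 1834 reads in the input, 121 and 896 with the masked probe, and 194 and 215 in TH59-DB. In CPM both TH59-DB libraries (108 and 83.0) were below both input libraries (1001 and 642), with a log2 fold change of -3.18 (SE 0.92, edgeR adjusted p = 0.117). Hnrnpul2, of the hnRNP U-like family, had a log2 fold change of -2.13 (edgeR adjusted p = 0.131).

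Fth1, the ferritin heavy chain that stores iron, had 639 and 1128 reads in the input, 196 and 654 with the masked probe, and 59 and 149 in TH59-DB (log2 fold change against the input -2.48, edgeR adjusted p = 0.148). In CPM its TH59-DB libraries (32.7 and 57.5) lay below all 4 others (99.5 to 395). DESeq2 called 3 models lower than the input: Fth1, Camk1d and the chromosome 3 locus of most reads. In edgeR the latter was at -2.69 on the log2 scale (SE 1.07, adjusted p = 0.262), with 12475 and 7542 CPM in the input and 2905 and 874 in TH59-DB, which did not overlap. Malat1's longest model had 1045 and 1665 CPM in the input and 3877 and 3151 in TH59-DB, also without overlap, and did not pass (log2 fold change 1.46, SE 0.92, edgeR adjusted p = 0.584).

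The comparison of masked TH59-DB with the input gives the background of the capture itself. On the centromere side 0 models were higher and 0 lower, against 0.26% and 0.0% of all models tested (edgeR, Benjamini-Hochberg adjusted p under 0.05). Unadjusted, 13 were higher and 6 lower at p under 0.05, or 5.18% and 2.39%, against 3.86% and 2.95% of all models. DESeq2 gave an adjusted p to 129 of the models and called 11 higher and 1 lower, or 8.53% and 0.775%, against 3.31% and 0.728% of 3021 models over all chromosomes. The difference between these shares was not tested. The median log2 fold change was -0.16, against -0.26 over all models. The smallest adjusted p was that of the chromosome 17 locus, with 45.2 and 74.0 CPM with the masked probe and 0 and 0.350 CPM in the input (log2 fold change 7.93, SE 1.43, edgeR adjusted p = 0.0560). The Ppp1r9a model was at least 45.0-fold above the input with the masked probe (edgeR adjusted p = 0.118). The chromosome 16 loci were at least 11.9-fold and at least 16.9-fold above it (edgeR adjusted p = 0.103 each). Esr1 was lowest of the 8 loci in masked TH59-DB 2 (4.16 CPM), and its log2 fold change over the input was 4.63 (SE 1.49, edgeR adjusted p = 0.492).

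In the other direction, models in Camk1d (log2 fold change -2.69, edgeR adjusted p = 0.495), Coro1b, a coronin that binds actin (-4.93, 0.581), and n-R5s194, a 5S rRNA gene (-4.46, 0.617), had the smallest p. The 5S model had 301 and 16 reads in the input, 11 and 2 with the masked probe, and 155 and 8 in TH59-DB. Library 1 exceeded library 2 in all 3 groups, and 5S genes occur in many copies, so its reads are uncertain. Without masked TH59-DB 2 the counts were 28 higher and 33 lower. They were 8 higher and 1 lower without masked TH59-DB 1, 7 higher and 0 lower without either TH59-DB library, and 0 without either input library.

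Of the 375 models 11 had reads in all 4 captured libraries and at most 1 read in the input, 2.93% of the centromere-side models against 1.68% of all. They were the 9 above, with an unannotated locus on chromosome 12 (6309803 to 6309933, with 22 and 32 reads in TH59-DB and 7 and 4 with the masked probe) and a model in Arhgap42, which encodes a GTPase-activating protein (15 and 5, and 3 and 2). Reads in both TH59-DB libraries and in none of the other 4 were found for 22 models, 5.87% against 4.93% of all. Of these 3 passed the filter: a chromosome 6 locus from 6244394 (42 and 20 reads), a model in Abca13 (35 and 14) and a model in the lncRNA gene Gm32823 (31 and 10). The other 19 had at most 33 reads in TH59-DB 1 and at most 8 in TH59-DB 2. A further 22 models had reads in TH59-DB 1 alone, 5.87% against 8.80% of all models. Reads in all 6 libraries were found for 157 models, or 41.9% against 41.0%. Over all chromosomes none of the 7959 models had under 5 reads in TH59-DB 1, while 1404 to 4341 had 0 reads in each other library. How the deposited models were chosen is not given in the sources used here. The counts of models with reads in TH59-DB are therefore a description of the deposited models, and the part of that choice in them was not tested.

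By distance from the start of the assembled sequence, the models between 3.5 and 5 Mb held more of the TH59-DB libraries than of the others. These 125 models made up 0.118% and 0.165% of the input, 0.0884% and 0.157% of masked TH59-DB, and 0.373% and 0.520% of TH59-DB. Both TH59-DB libraries were above the other 4, with a mean of 0.447% ± 0.104 against 0.123% ± 0.0484 with the masked probe (SD, n = 2, exact permutation p = 0.333, the smallest possible). The Esr1, Ppp1r9a and Frmd4a models lie in this stretch and were picked above for being higher in TH59-DB than in the input. Of its 6734 and 13464 TH59-DB reads, the Ppp1r9a model held 1457 and 6288 and the Esr1 model 888 and 3308. The overlapping Frmd4a models held 156 and 578, and 131 and 571. Without the picked models TH59-DB 2 no longer stood above the input libraries. The difference is therefore not shown for the other models of the stretch. The 46 models under 3.5 Mb, closest to the satellite blocks, made up 0.0342% and 0.0281% of the input, 0.0306% and 0.0390% of masked TH59-DB, and 0.0667% and 0.0434% of TH59-DB. The chromosome 16 loci picked above lie here. Of the 1203 and 1123 TH59-DB reads of this stretch, the first held 94 and 398 and the second 47 and 251. From 5 to 7.5 Mb the 118 models, among them the chromosome 3 locus of most reads and Malat1, went the other way against the input. They made up 1.68% and 1.40% of the input, 0.802% and 1.43% of masked TH59-DB, and 1.24% and 0.880% of TH59-DB. Both TH59-DB libraries were below both input libraries (exact permutation p = 0.333) and within the range of the masked ones. Without the chromosome 3 locus and Malat1, the remaining 112 models held a mean of 0.256% ± 0.0545 of the input and 0.171% ± 0.00725 of TH59-DB (SD, n = 2 each). From 7.5 to 10 Mb the 86 models held 0.0933% to 0.186% of every library, with the groups overlapping. Of their 2640 and 4143 TH59-DB reads, the chromosome 17 locus picked above held 495 and 2445.

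Median log2 fold changes of TH59-DB against masked TH59-DB were 0.34 under 3.5 Mb (32 tested), 0.44 from 3.5 to 5 Mb (82), 0.16 from 5 to 7.5 Mb (83) and 0.02 from 7.5 to 10 Mb (54). The 2 models that passed were both between 3.5 and 5 Mb. In libraries numbered 2, the share of models higher in TH59-DB was 25.9% of 27 under 3.5 Mb and 18.4% of 76 from 3.5 to 5 Mb. It was 10.3% of 78 from 5 to 7.5 Mb and 9.8% of 51 from 7.5 to 10 Mb. These shares rest on a single library of each group, and the difference between stretches was not tested.

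**Figure D3:**
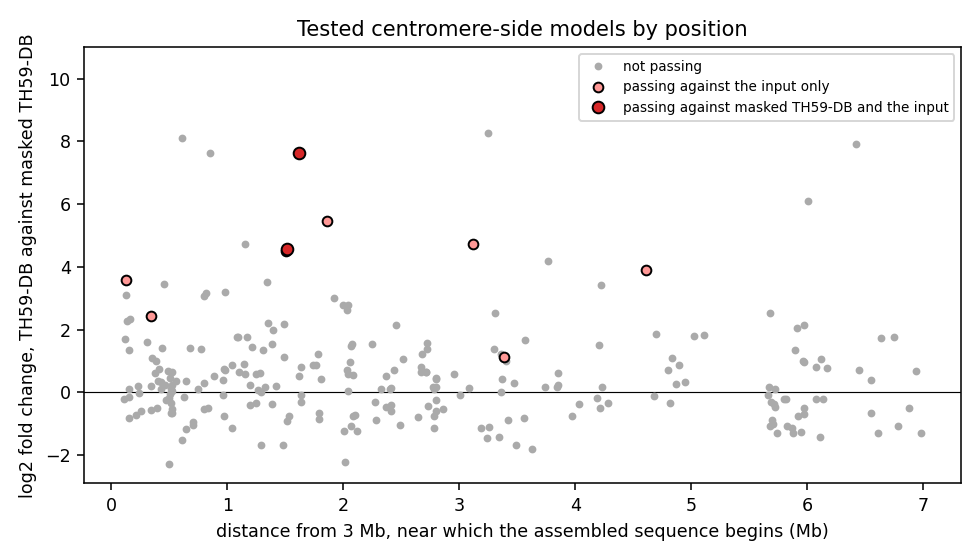
Each of the 251 tested models is placed by its distance from 3 Mb and by its log2 fold change of TH59-DB against masked TH59-DB. Larger colored symbols with a black edge mark those that passed a test, and small grey ones the others. The 9 models higher than the input lie at values of 1.12 to 7.63 and are spread over the left and middle of the plot. Grey points above 6 had 0 masked reads in both libraries, so their fitted values are not bounds, and they did not pass.

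Models on the distal side held more of each TH59-DB library than of the others. The distal side was taken as the 1019 autosomal models within 7 Mb of the outermost gene or model of their chromosome, a stretch as long as the centromere-side one. These made up 2.08% and 1.62% of the input, 0.996% and 1.67% of masked TH59-DB, and 3.12% and 6.29% of TH59-DB. The ratio of centromere-side to distal-side reads was 0.939 and 1.09 in the input, 1.02 and 1.08 with the masked probe, and 0.586 and 0.255 in TH59-DB. Both TH59-DB libraries were below the other 4 (exact permutation p = 0.333 against either group, the smallest possible). The chromosome 3 locus of most reads weighs on this ratio in the input. Without it, centromere-side against distal-side reads were 21135 against 62170 and 28827 against 46229 in the input. They were 15123 against 19632 and 46893 against 52262 with the masked probe, and 27717 against 56239 and 39256 against 162905 in TH59-DB. TH59-DB 1 then had a higher ratio than input 1, so TH59-DB and the input overlapped. Both TH59-DB libraries stayed below the masked ones. Of 636 distal-side models tested 18 were higher in TH59-DB than with the masked probe, or 2.83%, with a median log2 fold change of 0.72. In libraries numbered 1, where most models were higher in TH59-DB on every side, the shares were 88.6% of 1012 distal-side models, 84.4% of 372 on the centromere side and 84.1% of 6278 in the interior of the autosomes. In libraries numbered 2 they were 33.1% of 616, 14.7% of 232 and 15.0% of 4049.

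**Figure D4:**
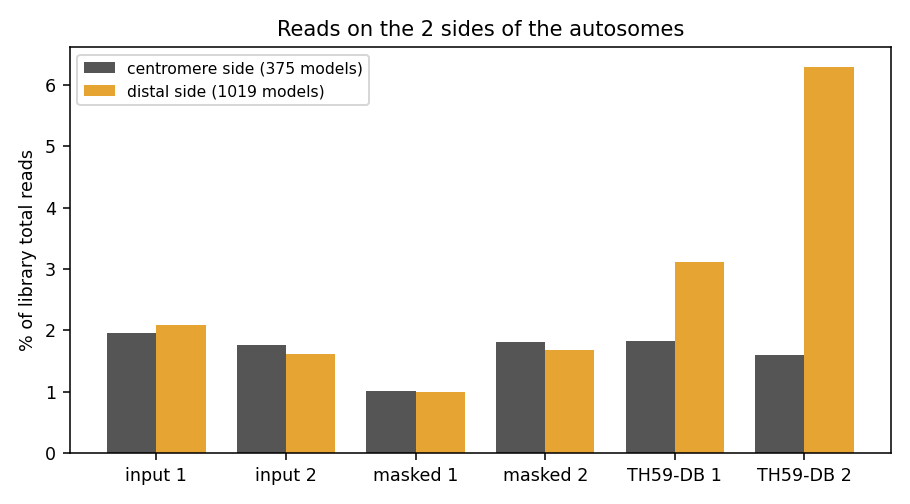
Bars show the percentage of each library's total reads in the 375 centromere-side and 1019 distal-side models. The 2 sides are alike in the 4 input and masked libraries, and the distal bar is the higher in TH59-DB 1 (3.12% against 1.83%) and TH59-DB 2 (6.29% against 1.60%). The centromere-side bars include the chromosome 3 locus of most reads, which is 1.25% of input 1 and 0.754% of input 2.

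The genes of these regions were grouped by role, and in none of the lists did a model pass in any of the 3 comparisons, in edgeR with all 6 libraries. Over all tested models the median log2 fold change was 0.30 against masked TH59-DB and 0.03 against the input, and over the centromere-side models 0.24 and 0.12.

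Of 18 listed genes of the ribosome and translation, 8 had 12 models, all tested. Their median log2 fold change was -0.94 against the input, and -1.35 to -0.56 in the 13 other fits. Against masked TH59-DB it was -0.14 and turned positive in 4 of them (0.11 with DESeq2 size factors, 0.12 with DESeq2, 0.02 with sums of model counts, 1.20 without masked TH59-DB 2). Rps9, of the small subunit, had a model with 187 and 273 CPM in the input, 128 and 197 with the masked probe and 72.6 and 59.5 in TH59-DB, the last below the other 4 libraries (log2 fold change against the input -1.73, edgeR adjusted p = 0.240). Eef1g, a subunit of elongation factor 1, had 150 and 256 CPM in the input, 35.5 and 212 with the masked probe and 57.1 and 54.8 in TH59-DB (-1.73, 0.356). Rps20, which also hosts a snoRNA, had 113 and 138 CPM in the input, 9.13 and 94.2 with the masked probe and 18.9 and 29.7 in TH59-DB (-2.18, 0.296). For both, TH59-DB lay below the input, and the masked libraries spanned the TH59-DB values.

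Of 15 splicing genes, 8 had 13 models, of which 11 were tested. Their median was 0.42 against masked TH59-DB, turning to -0.13 without masked TH59-DB 1. It was -0.21 against the input, turning positive in 4 other fits (0.07 to 0.26). Sf3b2, a subunit of the U2 snRNP, had a model with 93.1 and 137 CPM in the input, 59.4 and 97.7 with the masked probe and 80.9 and 35.1 in TH59-DB (log2 fold change against the input -1.06, edgeR adjusted p = 0.502). Ewsr1, an RNA-binding protein gene, had 53.9 and 103 CPM in the input, 104 and 135 with the masked probe and 43.2 and 47.9 in TH59-DB, the last below the other 4 libraries (against masked TH59-DB -1.08, adjusted p = 0.738). Sf1, the branch point binding protein, had 0.00 against masked TH59-DB and -1.22 against the input (edgeR adjusted p = 0.999 and 0.614).

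Of 21 genes of transcription and chromatin, 7 had 9 models, of which 7 were tested. Their median was 1.34 against masked TH59-DB and 0.27 to 4.04 in the other fits. Against the input it was 0.27, turning to -0.34 without TH59-DB 1. The highest value belonged to Kmt5b, a histone H4 lysine methyltransferase (log2 fold change 3.15, edgeR adjusted p = 0.690), which had 45 and 2 reads in TH59-DB and 0 and 8 with the masked probe, so that it rested on TH59-DB 1. Kdm2a, a histone demethylase, had 1 model at 1.98 (adjusted p = 0.720) and 1 at 0.18 (0.980). Brms1, of the Sin3 deacetylase complexes, was at 0.05 (0.995), with 19 and 22 reads in TH59-DB and 21 and 33 with the masked probe.

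The list of 15 genes for protein folding and turnover also holds Ppp1r14b, Ehd1 and Ppp6r3, which have other main roles. Of the 15 genes, 7 had 8 models, all tested. Their median was -0.90 against the input, and -1.21 to -0.47 in the other fits. Against masked TH59-DB it was 0.51, turning to -0.50 in the fit of the 2 groups alone and -0.25 without masked TH59-DB 1. Ubxn1, a cofactor of the segregase p97, had a model with 95.5 and 117 CPM in the input, 100.5 and 171 with the masked probe and 57.7 and 44.8 in TH59-DB, the last below the other 4 (log2 fold change against the input -1.02, edgeR adjusted p = 0.557). Stip1, a co-chaperone, was at -1.44 (0.559) and Ppp1r14b, a phosphatase inhibitor, at -1.56 (0.532).

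Of 14 snoRNAs and snoRNA host genes, 3 had 1 model each: Rps20, Snord22, a C/D box snoRNA within the host gene Snhg1, and LOC115489078, another snoRNA there. Their median was -1.34 against the input and -2.13 to -0.04 in the other fits. It was -0.47 against masked TH59-DB, turning to 0.35 without TH59-DB 1. The Snord22 model had 465 and 140 reads in the input, 77 and 185 with the masked probe and 83 and 108 in TH59-DB, which overlap. Of 2 nuclear lncRNAs Malat1 alone had models, 5 of them. Their median was 0.16 against masked TH59-DB and 0.07 against the input, turning negative in 3 of the 13 other fits each. The models did not move as one: the longest was at 1.46 against the input and the one toward the far end of the gene (5796300 to 5797760) at -0.61, with 727 and 954 reads in the input and 335 and 443 in TH59-DB (edgeR adjusted p = 0.584 and 0.883).

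**Figure D5:**
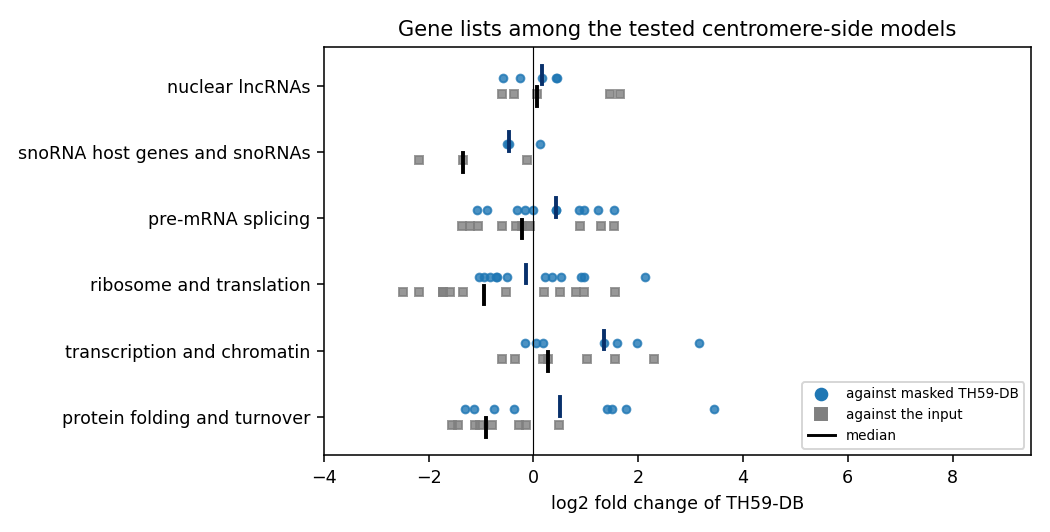
Each point is a tested model of a list, with circles for its log2 fold change of TH59-DB against masked TH59-DB, squares for that against the input, and bars for medians. Against the input, the medians of the ribosome (-0.94), folding (-0.90) and snoRNA (-1.34) lists lie left of 0, and no point passed the test. The folding list includes some genes of other roles.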

How the data were processed

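RNA of 6 libraries, 2 of each group, was analysed. The deposited counts, whole reads per transcript model, and the FPKM values made by the authors from them were used. The submitters' processing notes name cutadapt, HISAT2, Cufflinks, featureCounts and mm10, without roles; the kit was stranded, but the strand setting of the counting is not given in the sources used here. All computations used counts; FPKM gave only the library totals. First and second libraries were joined on all exons (359 of 375 models) or on chromosome, first start and length (16). Libraries without a number in the labels were taken as number 1.

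A gene was assigned where at least 50% of a model lay in its RefSeq span (GRCm38.p6). A gene of at most 1000 bases was also given to a single-exon model that covered it and was at most 8 times its length. Counts of all models were fitted with edgeR 4.0.16 in R 4.3.3 (filterByExpr, TMM, robust quasi-likelihood, group term, all 6 libraries, 2-sided; biological coefficient of variation 0.702), with library totals as library sizes and Benjamini-Hochberg adjustment over 5385 models. DESeq2 1.42.0 was an alternative. Scripts were tested on simulated counts. Intervals are 95% exact ones; with no molecular identifiers they cover counting error only. A count of 0 was given a floor of 3 reads per library. The models and lists were chosen with earlier results of these data known. Models named were those passing a test (else the 3 of smallest p in each direction), the 5 with most CPM in each group, up to 4 of each list and the 5 with most TH59-DB reads in no span; the erythroid and other marker lists are given above. Models in lists on DNA replication and repair and on chromosome 9 satellite-side loci numbered 0. Deviations from the group means correlated by 0.142 (input and masked TH59-DB), 0.108 (input and TH59-DB) and 0.0204 (masked TH59-DB and TH59-DB) between same-numbered libraries. The last is under 0.1, so the numbers were not taken to pair the libraries. The correlations with the input were above 0.1, so pairing there is not excluded.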

Additional observations from a re-analysis of the deposited data

How the results depend on the processing

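Of the 9 models higher in TH59-DB than in the input, 7 kept the call in all 13 other fits. With DESeq2 the models higher in TH59-DB than in masked TH59-DB numbered 11 (2 as reported), those higher and lower than the input 16 and 3 (9 and 0), and those higher and lower in masked TH59-DB than in the input 11 and 1 (0 and 0). With DESeq2 size factors in edgeR, the first count was 7 and the masked count 8. With totals and no TMM they were 8 and 9, with 2 models lower than the input. With no low-count filter they were 9 and 9, with 1 lower than the input and 1 lower in masked TH59-DB. With the library number as a replicate block they were 9 and 9, with 6 and 1 lower. The numbers were not taken to pair the libraries in the main fit, and pairing with the input is not excluded. With sums of model counts as library sizes, an alternative added after the data were seen, they were 5 and 8. With only the 2 groups compared, 16 were higher and 4 lower than the input, and 1 was higher in masked TH59-DB. With 1 library left out, the counts ran from 1 to 57 higher and 0 to 12 lower against masked TH59-DB, 7 to 27 and 0 to 6 against the input, and 0 to 28 and 0 to 33 for masked TH59-DB against the input. Most models called against masked TH59-DB without a masked library were not among the 9 (1 of 10 without the first, 3 of 57 without the second), whereas 7 of the 7 called with DESeq2 size factors were. As a share of the reads in models, the centromere-side models held 3.83% of the input, 2.84% of masked TH59-DB and 3.79% of TH59-DB. Models under 5 Mb, among them those of Esr1, Ppp1r9a and Frmd4a, held 0.173%, 0.158% and 0.502% of the library totals. Without the model of most reads the shares were 0.859% of the input and 1.53% of TH59-DB. Without Malat1 and the 9 models as well they were 0.573% and 0.428%. With 1 library left out the shares of all centromere-side models ran from 1.76% to 1.96%, 1.01% to 1.81% and 1.60% to 1.83%. Apart from DESeq2, shares over all models are not given for the other fits, so their counts say nothing about the centromere side in particular. The cause of these shifts was not tested. At these depths a model of few reads has no measurable difference: 124 models were not tested.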
